A study of Mus musculus with 6 samples.

Results

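The 10 genes described here encode growth factors that bind the ErbB receptors: the neuregulins Nrg1, Nrg2, Nrg3 and Nrg4, and the EGF-type ligands Ereg, Areg, Hbegf, Tgfa, Btc and Egf. They were taken by name from the 33697 genes of the count matrices, and all 10 had at least 1 UMI (a molecular tag that marks 1 captured transcript) in the cells analysed. The cells were live tdTomato+ lamina propria cells sorted from Flare-TSLP mice, in which a red fluorescent reporter marks the Tslp locus. There were 6 droplet libraries: 2 of the proximal small intestine, 2 of the distal small intestine, 1 of the cecum and 1 of the large intestine. All animals carried the reporter on a C57BL/6 background, the labels name no treatment, and the study's methods describe adult mice of both sexes. Each library used 3 antibody barcodes (hashtags), and some kept cells had none called. No table used here pairs hashtags with mice, so each library was treated as 1 sample. The sort sets a limit: every level below is that of cells from the tdTomato+ sort and not of the tissue. Whether each cell type outside the fibroblasts carried the reporter was not tested here. By flow cytometry the paper found the reporter in lymphatic endothelial cells, rarely in cells with the hematopoietic marker CD45, and not in intestinal epithelial cells. In the paper those rare CD45+ cells were CD31+ endothelial cells. The study's methods also dropped clusters with very few tdTomato+ cells as contaminants, a step not applied here, so the immune, glial, mural and epithelial classes below may hold cells that it would remove. Nothing in the labels says that the 2 libraries of a small intestinal region came from separate experiments. The spread between these libraries may thus be partly technical. The tests estimate spread with the help of all genes. A small p-value need not mean that a gene's own libraries lay close together.

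ErbB ligands are made as precursors in the cell membrane, from which proteases of the ADAM family release the active factor. Released EGF-type ligands bind EGFR, and betacellulin, epiregulin and heparin-binding EGF also bind ERBB4, while the products of Nrg1 and Nrg2 bind ERBB3 and ERBB4 and those of Nrg3 and Nrg4 bind ERBB4. ERBB2 has no ligand of its own and works as the partner of the others. In the gut these factors drive growth and repair of the epithelium, and stromal cells below the crypts and along the villi are a known source of Nrg1 and Ereg. Subepithelial myofibroblasts (SEMFs) lie under the epithelium, villus tip telocytes (VTTs) are the SEMFs of the villus tip, and trophocytes lie below the crypts, where they make factors that keep stem cells. Lymphatic endothelial cells (LECs) line the lacteals and the submucosal lymphatics.

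Ereg, Areg and Btc are neighbours on chromosome 5 of GRCm39: Ereg lies at chr5:91222157-91241505 and Areg at chr5:91287451-91296291, both on the plus strand with 45945 bases between them, and Btc follows at chr5:91505120-91550883 on the minus strand, 208828 bases beyond Areg. A further ligand gene, Epgn, precedes Ereg by 39082 bases. The promoters of Areg and Btc, 250 bases before to 50 after the RefSeq start, are shown because these 2 neighbours moved in opposite directions in SEMF-like cells of the large bowel, with a call on Areg that several alternatives did not keep (below). They are given on the gene's strand from GRCm38.p6, an older build than that of the gene positions, at chr5:91139349-91139648 (plus strand, Areg) and chr5:91402945-91403244 (minus strand, Btc). Capitals mark the motifs found:
Areg: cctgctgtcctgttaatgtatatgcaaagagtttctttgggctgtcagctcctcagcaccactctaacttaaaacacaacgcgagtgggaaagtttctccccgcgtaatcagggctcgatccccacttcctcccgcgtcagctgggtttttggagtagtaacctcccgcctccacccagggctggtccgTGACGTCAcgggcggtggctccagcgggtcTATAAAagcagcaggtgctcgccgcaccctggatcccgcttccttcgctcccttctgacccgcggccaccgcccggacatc
Btc: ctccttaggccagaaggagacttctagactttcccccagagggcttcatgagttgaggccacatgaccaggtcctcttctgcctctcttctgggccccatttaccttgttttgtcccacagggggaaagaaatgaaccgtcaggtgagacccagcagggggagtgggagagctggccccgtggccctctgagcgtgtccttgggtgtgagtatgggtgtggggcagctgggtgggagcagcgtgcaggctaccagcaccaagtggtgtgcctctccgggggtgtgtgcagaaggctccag
Both strands were searched for 3 motifs, the full cAMP response element (TGACGTCA), the box that binds TBP (TATAAA) and the AP-1 element (TGANTCA). The Areg window held the first with its leading base at position -61 from the start and the second at -31, and the Btc window held none of the 3. Over 32851 mouse promoter windows of the same length, 1.79% held the cAMP response element, 13.6% the TBP box and 7.81% the AP-1 element. These are matches of letters and not sites.

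Libraries held 109675337 to 206827504 UMIs on genes. After limits on genes, UMIs and mitochondrial share, 11751 to 21299 cells were kept in a library, and 10599 to 18351 once cells with several hashtags were removed. Kept cell barcodes shared by 2 libraries numbered 38 to 118, at most 0.609% of the smaller library. Classes were gated on fixed marker lists that hold no ErbB ligand, and fibroblast-like cells made up most cells (9464 to 16669 in a library). They were split into SEMF-like (11122 cells over all libraries), VTT-like (3413), trophocyte-like (36082), universal fibroblast-like (6427), Ptn Scg2 stromal (1392) and chemokine-high stromal cells (883), with 9697 in no subclass. LEC-like cells numbered 14465, blood endothelial-like 1265, smooth muscle-like 819, pericyte-like 816, plasma-like 659, T cell or ILC-like 346, B-like 268, myeloid-like 221, glia-like 137 and epithelial-like 64, of which 48 were in the large intestine. A class was used in a library where it had at least 20 cells. Levels are in CPM, that is UMIs scaled to a total of 1000000 UMIs in the class and library, and values in brackets marked proximal or distal are those of replicate 1 and then replicate 2. Each molecule is counted once, at its end by design, and levels were not corrected for gene length. The part of gene length in the levels was not tested.

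The following marker levels describe the classes and are no independent check, since the gates used these genes. Prox1, the master regulator of lymphatic identity, stood at 945 to 1173 CPM in LEC-like sums. In VTT-like cells Lgr5, the marker of villus tip telocytes, was at 136 to 1046 CPM in the small intestine but at 16.9 to 32.5 in the cecum and large intestine, which have no villi. There the gate rests on Bmp7 (235 to 238), Foxl1 (90.5 to 109.9) and the other markers, so these cells are VTT-like by the rule only. No more than the minimum of 3 markers was found in 717 of the 2601 VTT-like cells in the large intestine, 253 of 511 in the cecum, 45 of 124 and 25 of 68 in the proximal and 28 of 60 and 21 of 49 in the distal replicates. Only 49 to 124 VTT-like cells were found in a small intestinal library. Itga8 in SEMF-like sums was at 347 to 607 CPM in the small intestine and at 11.1 to 24.8 in the large bowel, while Sox6 stood at 6.65 to 25.5 in the small intestine, 292 in the large intestine and 43.8 in the cecum. In sums of a class, fewer cells with a transcript and less of it per cell cannot be told apart.

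Nrg1 and Ereg were the abundant ligands, with 141958 and 92949 UMIs over all cells, and 94.8% and 95.5% of these came from fibroblast-like cells. Nrg2 followed with 11979 UMIs, Btc with 6938, Areg with 3526, Hbegf with 2517, Egf with 1698, Nrg3 with 1007, Tgfa with 275 and Nrg4 with 219. The fibroblast-like share was 93.2% for Btc, 80.8% for Egf, 79.7% for Areg, 65.2% for Nrg2 and 29.2% for Hbegf. For Nrg3 it was 24.3% and for Tgfa 15.3%, so these ligands and Hbegf came mostly from other cells of the sort. Nrg1 spans chr8:32303906-33374825 on the minus strand of GRCm39, Nrg2 and Hbegf are on chromosome 18, Nrg3 on 14, Nrg4 on 9, Tgfa on 6 and Egf on 3. A second row of the matrices, also named Nrg1, had 0 UMIs in all 6 libraries and was left out. Counting was at the 3′ end, so the isoforms of Nrg1 cannot be told apart here.

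**Figure D1:**
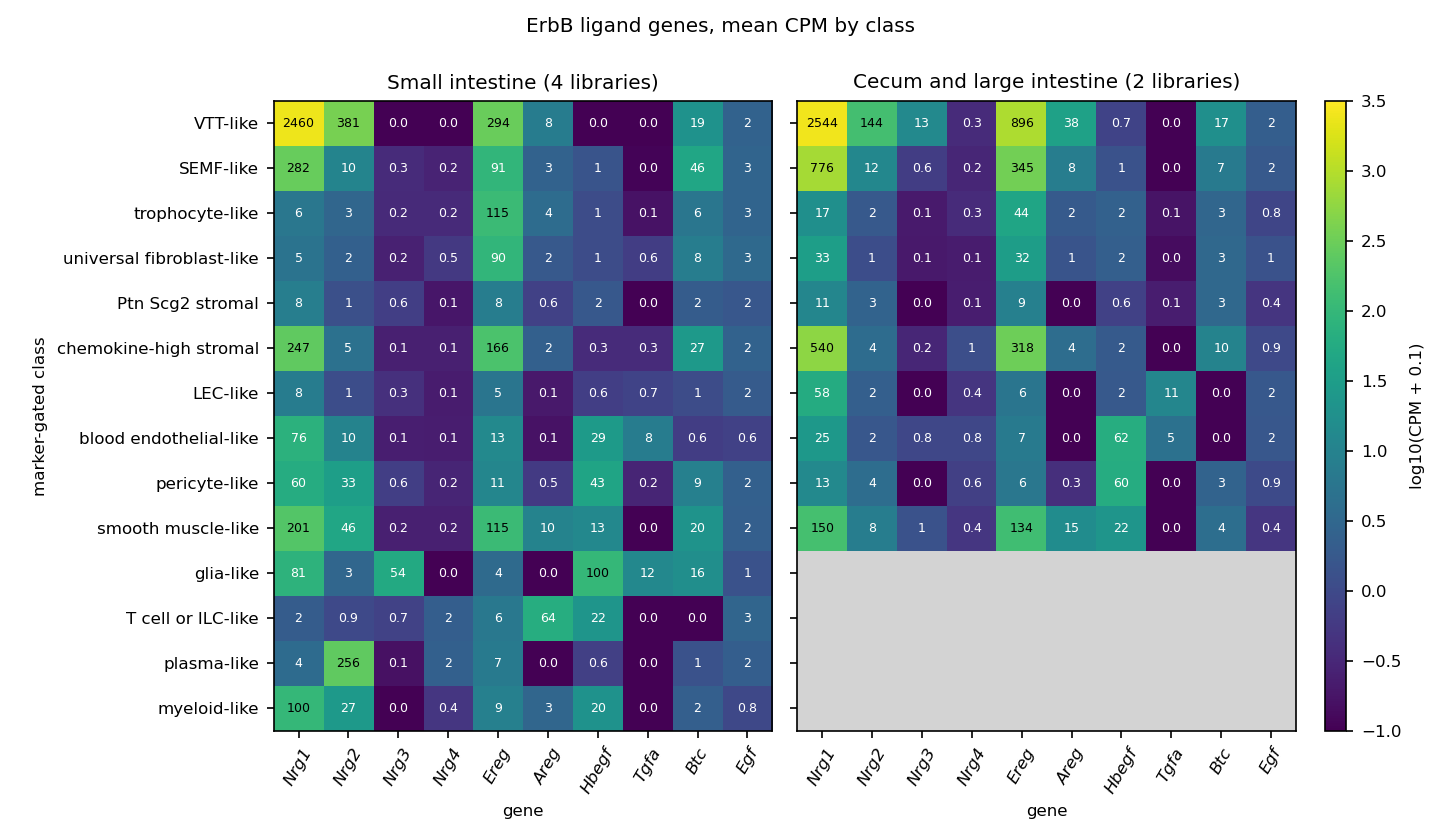
Mean CPM of each ligand gene (columns) in each marker-gated class (rows), over the libraries of the small intestine (left) and of the cecum and large intestine (right) with at least 20 cells of the class; color is log10 of the level plus 0.1 and grey marks classes with no such library. Nrg1 led in VTT-like cells on both sides (2460 and 2544 CPM), and Hbegf, Tgfa and Areg led outside the fibroblasts in the small intestine.

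Nrg1, the neuregulin of the heart and of Schwann cells and an epithelial growth factor in the gut, was highest in VTT-like cells. Its level there was 3412 and 2176 (proximal), 2798 and 1453 (distal), 3209.5 (cecum) and 1878 (large intestine) CPM. In SEMF-like cells it was 343 and 252 (proximal), 258 and 275 (distal), 451 (cecum) and 1101 (large intestine) CPM. The classes did not overlap, since the lowest VTT-like library lay above the highest SEMF-like one. Trophocyte-like cells held 3.15 to 7.64 CPM of Nrg1 in the small intestine, universal fibroblast-like cells 2.11 to 9.88 and Ptn Scg2 stromal cells 3.77 to 13.7, ranges that overlap each other. Chemokine-high stromal cells (62.9 to 435 in the small intestine) and smooth muscle-like cells (108 to 329) overlapped the SEMF-like range. In the small intestine the 12 SEMF markers summed to 1077 to 1538 CPM in smooth muscle-like and to 3138 to 3880 in SEMF-like sums, and the part of this in the Nrg1 of smooth muscle-like cells was not tested.

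**Figure D2:**
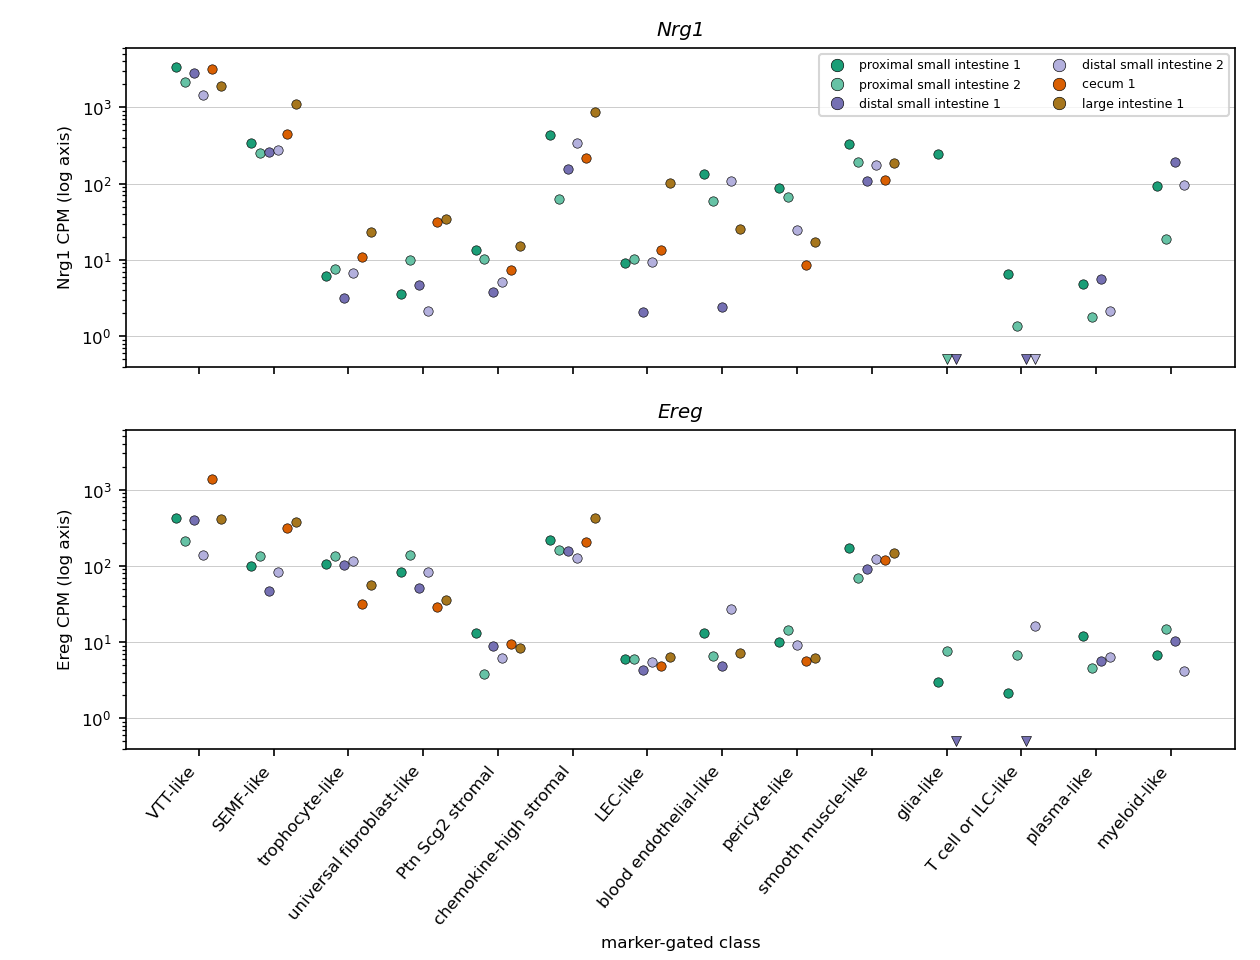
Nrg1 (top) and Ereg (bottom) CPM on a log axis in each class (x axis), 1 point per library with at least 20 cells of the class; triangles at the bottom mark values under 0.5. Nrg1 spans from 1453 to 3412 in VTT-like cells down to 3.15 to 23.4 in trophocyte-like cells, while Ereg in trophocyte-like cells (32.1 to 134) lies within the range of the other fibroblasts.

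Most of the Nrg1 of the small intestine came from SEMF-like cells (18019 of 34964 UMIs, 51.5%) and 19.5% from the few VTT-like cells. In the large bowel 60798 of 106994 UMIs (56.8%) came from VTT-like and 25.6% from SEMF-like cells. With each cell thinned to 2500 UMIs, 63.2 to 78.3% of VTT-like cells, 28.2 to 37.2% of SEMF-like cells and 0.716 to 1.30% of trophocyte-like cells of the small intestine had a Nrg1 UMI, against 0.2703 to 1.33% of LEC-like cells. Without thinning these shares were 69.4 to 85.0%, 48.9 to 57.3%, 1.78 to 4.08% and 1.22 to 2.65%. LEC-like cells serve here as a type taken to lack Nrg1, with median depths of 5465 to 6629 UMIs a cell against 7574 to 9954 in trophocyte-like cells. The thinned trophocyte-like share overlapped that background, and the SEMF-like and VTT-like shares lay above it in each library.

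Within VTT-like cells, Nrg1 was higher in the cells that had a Lgr5 UMI. These held 8273, 3462, 5296, 3648, 6750.1 and 7505 CPM of Nrg1 in the proximal replicates, the distal replicates, the cecum and the large intestine, in that order. The VTT-like cells without a Lgr5 UMI held 846, 1609.8, 1033, 945, 3027 and 1676. All 6 libraries moved the same way, by 2.15 to 9.78 times. Ereg was also higher in the cells with a Lgr5 UMI in all 6 libraries, by 1.17 to 5.23 times, but Nrg2 was higher in only 2 of 6. The split by Lgr5, like the splits by Ackr4 and Cd81 and by Itga8 below, was chosen after the data had been seen and is given as values. Sox6 was used below only to leave cells out of tests, likewise chosen after the data had been seen. Cells with more UMIs are more often found with a Lgr5 UMI, and the part of depth in this split was not tested.

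Nrg2, a neuregulin best known from the nervous system, was highest in VTT-like and plasma-like cells. In VTT-like cells it stood at 420.3 and 441 (proximal), 378 and 283 (distal), 155 (cecum) and 133 (large intestine) CPM. SEMF-like cells held 2.24 to 22.1 and trophocyte-like cells 1.17 to 4.13 CPM of Nrg2 over all 6 libraries. Plasma-like cells, which secrete antibodies, held 359.5 and 268 (proximal) and 176 and 219 (distal) CPM. They are among the classes that a filter on tdTomato may remove. Of the 6833 Nrg2 UMIs of the small intestine 40.1% were in plasma-like, 15.0% in VTT-like, 12.5% in trophocyte-like and 9.21% in SEMF-like cells. In the thinned cells 31.2 to 55.2% of plasma-like cells had a Nrg2 UMI (76.9 to 86.5% unthinned), while 0 of 192 B-like cells of 3 small intestinal libraries did, where 3 counts would be 3.13 CPM. Median depths were 12239 to 18816 UMIs in plasma-like and 3194 to 4426 in those B-like cells. The Nrg2 level of free RNA, read from barcodes with at most 100 UMIs, was 7.14 to 28.6. The plasma-like range did not overlap that of all fibroblast-like cells (4.41 to 9.50 in the small intestine). No test was planned for plasma-like cells.

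Ereg, or epiregulin, a short-range EGFR and ERBB4 ligand, was spread over more fibroblast classes than Nrg1. Its level in VTT-like cells was 420.3 and 215 (proximal), 401 and 138 (distal), 1381 (cecum) and 410.4 (large intestine) CPM. SEMF-like cells held 100.03 and 135 (proximal), 46.4 and 83.5 (distal), 312 (cecum) and 378 (large intestine) CPM. Trophocyte-like cells held 107 and 134 (proximal), 102 and 116 (distal), 32.1 (cecum) and 55.5 (large intestine) CPM. So in the small intestine SEMF-like, trophocyte-like, universal fibroblast-like (51.9 to 139) and chemokine-high stromal cells (126 to 219) overlapped. In the large bowel both SEMF-like libraries lay above all trophocyte-like libraries. The paper describes trophocytes as mainly small intestinal. The trophocyte-like cells of the cecum (2538) and large intestine (1229) are therefore so by the gate only. Ptn Scg2 stromal cells were the exception among fibroblasts, with 3.85 to 13.3 CPM of Ereg over all 6 libraries. Trophocyte-like cells gave 61.7% of the 53008 Ereg UMIs of the small intestine and 2.94% of the 39941 of the large bowel. Ereg in LEC-like sums was 4.32 to 6.30, below 10% of the free RNA level (7.33 to 19.1). The Ereg level of free RNA was 73.3 to 90.5 in the small intestine, 185 (cecum) and 191 (large intestine). LEC-like means were 5.47 in the small intestine and 5.55 in the large bowel. The part of free RNA in the Ereg of LEC-like cells was not tested.

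Detection of Nrg1 and Ereg in the same cell was counted as well. Between 32.7% and 73.0% of VTT-like cells in a library had UMIs of both genes and 6.65% to 20.4% had neither, as counted without thinning. In SEMF-like cells 10.999% to 44.3% had both. In trophocyte-like cells 0.657% to 2.52% had both, and most of those with either had Ereg in the small intestine.

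Within the trophocyte-like class, Ereg was lowest in the cells with the most of the trophocyte markers Ackr4, a scavenging chemokine receptor, and Cd81. Cells with no UMI of Ackr4 or Cd81 held 211, 232, 163, 157, 192 and 191 CPM of Ereg, in the same order of libraries as above. Cells with at least 2 UMIs of the 2 genes together held 41.0, 48.2, 42.3, 54.9, 21.9 and 23.7. The ratio was 2.85 to 8.74, and the ranges did not overlap. Areg moved the same way in all 6 libraries, from 4.52 to 9.03 down to 0.476 to 2.08. Nrg1 (1.24 to 4.40 times) and Btc (1.44 to 2.25 times) were also higher without the markers in all 6. Nrg2 went the other way, from 0 to 2.02 in cells without the markers to 1.22 to 5.37 in cells with them. Since a cell with few UMIs more often lacks a marker, the split also follows depth, and its part was not tested.

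In SEMF-like cells of the small intestine, Nrg1 and Ereg split apart along Itga8, an integrin of myofibroblasts. Cells with at least 2 Itga8 UMIs held 279.6 to 392 CPM of Nrg1, above the 143 to 219 of cells without one in each of the 4 libraries. Ereg was lower in the Itga8 cells in each of the 4, at 38.8 to 76.4 against 79.8 to 215, and so was Areg, at 0 to 1.44 against 2.85 to 8.73. Btc was higher in the Itga8 cells in each of the 4, at 40.7 to 58.4 against 29.9 to 51.3. As in the other splits, cells with few UMIs more often lack the marker, and the part of depth was not tested.

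**Figure D3:**
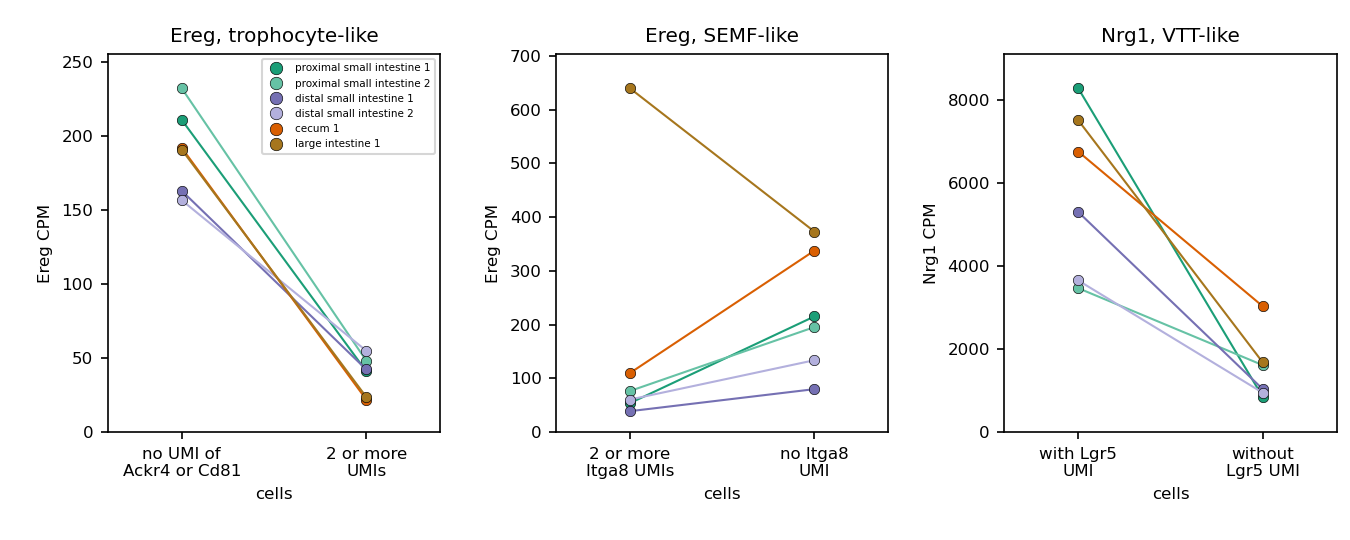
CPM within a class, each line joining the 2 parts of the class in 1 library: Ereg in trophocyte-like cells by Ackr4 and Cd81 UMIs (left), Ereg in SEMF-like cells by Itga8 UMIs (middle) and Nrg1 in VTT-like cells by Lgr5 UMIs (right). All 6 lines fall on the left and on the right, and in the middle 5 of 6 rise, the large intestine being the exception.

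Btc, betacellulin, was highest by mean in SEMF-like cells of the small intestine. Its SEMF-like level was 44.5 and 35.4 (proximal), 55.9 and 47.6 (distal), 7.12 (cecum) and 6.54 (large intestine) CPM. VTT-like cells held 10.03 to 36.8 CPM of Btc in the small intestine, chemokine-high stromal cells 19.5 to 31.4, smooth muscle-like cells 15.1 to 32.9 and trophocyte-like cells 3.81 to 7.36. All SEMF-like libraries of the small intestine lay above those of trophocyte-like cells, and the highest VTT-like library lay just inside the SEMF-like range. T cell or ILC-like cells had 0 Btc UMIs in the 4 libraries, at least 7.58-fold lower than fibroblast-like cells of those libraries when 3 counts are allowed over the class.

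Areg, amphiregulin, which T cells and innate lymphoid cells (ILCs) are known to release in tissue repair, was low in most stroma. T cell or ILC-like cells held 63.2 and 52.0 (proximal) and 82.4 and 56.6 (distal) CPM, from 21 to 38 UMIs in a library. Their mean was 63.6 CPM, and 35.6 under the stricter gate. Fibroblast-like sums held 2.98 to 8.20, and all were below the T cell or ILC-like libraries. Among fibroblasts the highest value was 61.4 in VTT-like cells of the cecum, against 14.2 in those of the large intestine and 2.07 to 18.8 in the small intestine. Epithelial-like cells of the large intestine, 48 cells, held 217. Plasma-like cells had 0 Areg UMIs, where 3 counts would be 0.296 CPM.

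Hbegf, heparin-binding EGF, was nearly absent from fibroblasts and present in blood vessels, glia, and T cell or ILC-like and myeloid-like cells. Fibroblast-like sums held 0.879 to 2.15 CPM of Hbegf. Glia-like cells held 83.5 and 123 (proximal) and 93.2 (distal replicate 1) CPM. Pericyte-like cells held 26.1 and 49.7 (proximal), 52.0 (distal replicate 2), 88.7 (cecum) and 31.8 (large intestine) CPM. Blood endothelial-like cells held 20.9 and 31.9 (proximal), 27.3 and 34.4 (distal) and 62.5 (large intestine) CPM. Each of these ranges lay above that of the fibroblasts and they overlapped each other, except that the glia-like range lay above the blood endothelial-like one. T cell or ILC-like cells (8.09 to 34.9), myeloid-like cells (6.80 to 37.3) and smooth muscle-like cells (4.71 to 30.2) were also above them, while LEC-like cells (0.206 to 1.80) overlapped them. Plasma-like cells held 0 to 2.12, and 192 B-like cells of 3 small intestinal libraries had 0 Hbegf UMIs, where 3 counts would be 3.13 CPM. The 48 epithelial-like cells of the large intestine had 289, and 75.0% of them had a Hbegf UMI before thinning and 37.5% after. VTT-like cells of the small intestine had 0 Hbegf UMIs, where 3 counts would be 1.152 CPM, so a level like that of the other fibroblasts was not detectable there. The 12 immediate early and stress genes of the fixed list, known to rise on tissue digestion, summed to 19236 to 27626 CPM in glia-like, 17077 to 19063 in pericyte-like and 12635 to 17585 in blood endothelial-like sums of the small intestine, against 6113 to 9688 in fibroblast-like sums. In the large bowel they summed to 30309 to 32832 in pericyte-like sums and to 18194 in blood endothelial-like cells of the large intestine, against 7912 (large intestine) and 24788 (cecum) in fibroblast-like sums. T cell or ILC-like sums had 6083 to 8255 CPM of them, overlapping the fibroblast-like range, and LEC-like sums of the small intestine 6569.7 to 12847. Myeloid-like sums (10839 to 14455) and smooth muscle-like sums (10363 to 11445) of the small intestine lay above the fibroblast-like range there. Beyond these values the part of the early and stress genes in the Hbegf levels was not tested.

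Tgfa, the EGFR ligand named transforming growth factor alpha, was found in glia-like, endothelial and epithelial-like cells and hardly in fibroblasts. Blood endothelial-like cells held 4.55 and 9.36 (proximal), 10.4 and 6.25 (distal) and 4.75 (large intestine) CPM, on 6 to 17 UMIs a library. LEC-like cells held 0.319 and 1.17 (proximal), 0.822 and 0.515 (distal), 16.0 (cecum) and 6.75 (large intestine) CPM. The large bowel libraries lay above all small intestinal ones, on 20 (cecum) and 15 (large intestine) UMIs. Glia-like cells had 17.9 and 19.2 in the proximal replicates 1 and 2, from 6 and 5 UMIs, and 0 in distal replicate 1. The 48 epithelial-like cells of the large intestine held 14.2 on 17 UMIs, and epithelial-like cells gave 27.3% of the 66 Tgfa UMIs of the large bowel. In fibroblast-like sums Tgfa did not exceed 0.201.

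Nrg3, a neuregulin of neurons, came mostly from single cells in 4 of the 6 libraries. Cells with at least 10 Nrg3 UMIs numbered 2 in each proximal replicate, 1 in distal replicate 1, 0 in distal replicate 2, 2 in the cecum and 1 in the library of the large intestine. In the proximal replicates, distal replicate 1 and the large intestine they gave 79.0%, 80.9%, 89.3% and 92.6% of all Nrg3 UMIs of the library. All 6 of these cells had UMIs of Syt1, Snap25 and Tac1, genes of synaptic vesicles, their fusion and of the neuropeptide substance P. Each of these 3 genes was found in at most 0.642% of the other cells of the same libraries. Of the 6 cells 5 had no class, and the remaining cell, in proximal replicate 1, was glia-like. The 2 such cells of the cecum were fibroblast-like, had none of these 3 genes and gave 35.9% of its 142 Nrg3 UMIs. VTT-like cells of the cecum held 93 of these UMIs, or 26.1 CPM, with a Nrg3 UMI in 3.52% of 511 cells (1.96% after thinning). Those of the large intestine held 0.1903 CPM, and those of the small intestine had 0 Nrg3 UMIs in 301 cells, where 3 counts would be 1.152 CPM. Nrg3 in glia-like cells was 146 and 15.4 (proximal) and 0 (distal replicate 1) CPM, and in proximal replicate 1 it was carried by 1.89% of the 53 cells. These cells were described after their values had been seen.

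Nrg4 and Egf were low in the named classes. Nrg4 had 219 UMIs in all, and its highest level in a named class was 6.11 CPM in T cell or ILC-like cells of distal replicate 1, which is 2 UMIs. In plasma-like cells of proximal replicate 2 it had 23 UMIs in 0.439% of the 228 cells. Egf stood at 1.15 to 2.90 in fibroblast-like sums, 0.893 to 2.88 in LEC-like sums and 1.21 to 3.34 in free RNA, ranges that overlap, and above 10% of the free RNA level (0.121 to 0.334) in each.

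The tests compared sums of classes within the same libraries. In the 4 small intestinal libraries, SEMF-like cells were compared with trophocyte-like cells, the 2 poles of the study's fibroblasts. Nrg1 was higher in SEMF-like cells (log2 change 5.40 ± 0.23, adjusted p = 2.21e-05), a 42.1-fold difference, higher in 4 of 4 libraries. Log2 changes are given ± SE, and p-values are adjusted over all genes tested. Btc was 6.82-fold higher (log2 change 2.77 ± 0.24, adjusted p = 0.000241) and Nrg2 2.90-fold higher (log2 change 1.53 ± 0.31, adjusted p = 0.00731). Ereg was lower (log2 change -0.62 ± 0.19, adjusted p = 0.0323), but this call was lost without proximal replicate 1 (adjusted p = 0.0572), without distal replicate 2 (0.0943), with a stricter gate (0.0547) and with no library block (0.114). Thus 3 of 8 ligand genes tested were higher and 1 lower, where 27.5% of all genes were called higher and 30.0% lower. The median log2 change was -0.0055 over the 8 and -0.00448 over all genes tested. Areg (-0.77 ± 0.37) and Egf, Hbegf and Nrg3 did not pass the test, and Nrg4 and Tgfa were too low to be tested. The same 4 calls held when SEMF-like cells with a Sox6 UMI were left out, an alternative added after the data had been seen.

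VTT-like cells were compared with all other fibroblast-like cells of the small intestine. Most of the latter were trophocyte-like, at 5512 of 9610 to 13403 of 16669 fibroblast-like cells in a library. Of 7 ligand genes tested 3 were called, and among these Nrg2 rose most, 78.4-fold (log2 change 6.29 ± 0.16, adjusted p = 1.50e-23). Nrg1 was 40.5-fold higher (log2 change 5.34 ± 0.26, adjusted p = 1.10e-16) and Ereg 2.16-fold higher (log2 change 1.11 ± 0.18, adjusted p = 9.12e-06), each in 4 of 4 libraries. None was lower, and the background was 8.77% higher and 13.0% lower. Btc (log2 change 0.37 ± 0.28) and Areg (0.69 ± 0.51) did not pass, nor did Hbegf, with 0 UMIs in VTT-like cells (adjusted p = 0.147). The median log2 change was 0.69 over the 7 and -0.09 over all genes tested. Means in VTT-like and SEMF-like cells of the small intestine were 2460 and 282 CPM for Nrg1. They were 381 and 10.5 for Nrg2 and 294 and 91.3 for Ereg.

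Other classes were compared with fibroblast-like cells of the same libraries. In LEC-like cells 5 of 10 ligand genes were lower and 1 higher, where 37.8% of all genes were lower and 27.3% higher. The lower ones were Nrg1 (log2 change -3.41 ± 0.22), Nrg2 (-2.87 ± 0.26), Ereg (-4.61 ± 0.19), Areg (-4.81 ± 0.38) and Btc (-3.70 ± 0.23), and Tgfa was higher (log2 change 4.67 ± 0.89, adjusted p = 0.00161). Blood endothelial-like cells had more Hbegf (log2 change 4.88 ± 0.26, adjusted p = 3.93e-07) and Tgfa (log2 change 6.54 ± 0.46, adjusted p = 2.38e-06) and less Ereg, Areg, Btc and Egf, that is 2 of 9 higher and 4 lower over a background of 22.4% and 37.1%. The call on Egf (log2 change -1.58 ± 0.52) was lost without any 1 of the 4 small intestinal libraries, with adjusted p from 0.0656 to 0.0906, and after subtraction of free RNA (0.0583), with log2 changes between -1.22 and -1.98 in these.

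In pericyte-like cells Hbegf was higher (log2 change 5.16 ± 0.25, adjusted p = 5.68e-07) and Ereg, Areg and Btc were lower, 1 and 3 of 7 genes tested, over 14.3% and 18.0% of all genes. The Btc call (log2 change -0.97 ± 0.272) was lost without proximal replicate 2 (adjusted p = 0.0727), distal replicate 2 (0.0684) or the large intestine (0.0560), by limma-voom (0.0532) and with no library block (0.183). Smooth muscle-like cells had more Hbegf (log2 change 3.58 ± 0.29, adjusted p = 2.52e-06), Areg (log2 change 1.19 ± 0.31, adjusted p = 0.01005) and Nrg2 (log2 change 1.70 ± 0.61, adjusted p = 0.0454), 3 of 7 with 0 lower, over 15.2% and 23.1%. Without distal replicate 2 only Hbegf remained called, and Nrg2 was lost without any 1 of the 4 small intestinal libraries (adjusted p from 0.107 to 0.163), by limma-voom (0.124), with no filter (0.0555) or no library block (0.140) and after subtraction of free RNA (0.0643).

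Among immune cells of the small intestine, T cell or ILC-like cells had more Areg (log2 change 3.91 ± 0.269, adjusted p = 3.70e-16) and Hbegf (log2 change 4.23 ± 0.46, adjusted p = 1.88e-10). Nrg1, Nrg2, Ereg and Btc were lower there, so that 2 of 8 were higher and 4 lower over 20.4% and 31.0%. Myeloid-like cells had more Hbegf (log2 change 3.998 ± 0.58, adjusted p = 6.80e-07) and Nrg2 (log2 change 1.77 ± 0.38, adjusted p = 0.000218) and less Ereg and Btc, 2 and 2 of 8, over 18.4% and 27.4%. The Btc call (log2 change -2.05 ± 0.65) was lost without proximal replicate 2 (adjusted p = 0.0532) or distal replicate 2 (0.0523) and after subtraction of free RNA (0.0626). Glia-like cells, 27 to 53 cells in 3 libraries, had more Hbegf (log2 change 6.45 ± 0.54, adjusted p = 7.83e-31), Tgfa (log2 change 7.28 ± 1.09, adjusted p = 3.87e-10) and Nrg3 (log2 change 7.20 ± 1.02, adjusted p = 2.23e-11) and less Ereg (-5.03 ± 0.46), 3 and 1 of 10, over 9.80% and 13.6%. Nrg3 was lost without proximal replicate 1 (adjusted p = 0.103), where 1 cell held most of it, a cell that also had UMIs of Syt1, Snap25 and Tac1. Its adjusted p in the main fit was small although its level ran from 0 to 146 CPM over the 3 libraries. After subtraction of free RNA, and without proximal replicate 2, both Tgfa and Nrg3 were too low to be tested. The Tgfa call thus rests on 11 UMIs in 2 libraries.

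The cecum and large intestine (the large bowel, 2 libraries) were compared with the small intestine (4 libraries). In all fibroblast-like cells Nrg1 was 93.6 and 86.9 (proximal), 30.3 and 79.4 (distal), 312 (cecum) and 844 (large intestine) CPM. Both large bowel libraries lay above all small intestinal ones (log2 change 3.04 ± 0.46, adjusted p = 0.00548). Nrg2 (log2 change 2.03 ± 0.51, adjusted p = 0.0252), Ereg (log2 change 0.97 ± 0.15, adjusted p = 0.00554) and Areg (log2 change 0.96 ± 0.20, adjusted p = 0.0144) were higher too, and Egf was lower (log2 change -1.07 ± 0.18, adjusted p = 0.00785). This made 4 of 9 higher and 1 lower, where 16.0% and 14.3% of all genes were called. VTT-like cells were 301 of 47558 fibroblast-like cells in the small intestine, 511 of 11994 in the cecum and 2601 of 9464 in the large intestine, so the mixture of classes moved with these values. Without the large intestine Nrg2 (log2 change 0.59, adjusted p = 0.239) and Areg (0.74, adjusted p = 0.0601) were lost and Nrg3 and Hbegf were called in their place. Nrg2 was also lost by limma-voom (0.0575) and without proximal replicate 2 (0.0620), distal replicate 1 (0.0501) or distal replicate 2 (0.0586), where its log2 change was 1.74 to 2.01. With the replicate number as a block it was lost as well (0.0870), while the other 4 calls held.

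Within SEMF-like cells the regions differed in 4 of 7 ligand genes tested. Nrg1 (log2 change 1.64 ± 0.31, adjusted p = 0.00744) rose from 282 ± 41.9 (SD, n = 4) CPM to 776 ± 459.8 (SD, n = 2), and Ereg (log2 change 2.10 ± 0.33, adjusted p = 0.00425) from 91.3 ± 36.9 (SD, n = 4) to 345 ± 46.4 (SD, n = 2). Areg rose from 2.54 ± 1.67 (SD, n = 4) to 7.92 ± 0.563 (SD, n = 2) (log2 change 1.75 ± 0.52, adjusted p = 0.0333). Btc went the other way, from 45.9 ± 8.49 (SD, n = 4) to 6.83 ± 0.410 (SD, n = 2) (log2 change -2.56 ± 0.22, adjusted p = 0.000521), a 5.89-fold lower level. In each of the 4 genes the 2 regions did not overlap. The background was 20.6% higher and 17.2% lower. Ereg was thus higher and its neighbour Btc lower in cells of the same gate, while the call on Areg was lost under 6 alternatives, given below. That gate was met less fully in the large bowel. No more than the minimum of 3 SEMF markers was found in 690 of 2628 SEMF-like cells of the cecum and 268 of 1637 of the large intestine. In the small intestine these were 90 of 1597 and 261 of 2265 (proximal) and 31 of 891 and 180 of 2104 (distal).

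The make-up of the SEMF-like class moved with region, with Itga8 at 347 to 607 CPM in the small intestine and 11.1 to 24.8 in the large bowel, and within the small intestine Itga8 cells had more Btc and less Ereg and Areg (above). SEMF-like cells without an Itga8 UMI were therefore compared alone, an alternative added after the data had been seen. It cannot settle the part of the make-up, since cells with few UMIs more often lack an Itga8 UMI. With the levels above, the cells left out are also a different share of the class in each region. Nrg1 (log2 change 2.29, adjusted p = 0.00161) and Ereg (1.33, adjusted p = 0.0153) stayed higher in the large bowel and Btc lower (-2.24, adjusted p = 0.000560). Areg was not called among them (0.59, adjusted p = 0.196), its level being 2.85 to 8.73 CPM in the small intestine and 8.56 to 8.98 in the large bowel.

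The early and stress genes moved with region in SEMF-like cells, from 1043 to 1978 CPM in the small intestine to 8820.4 and 14214 in the large intestine and cecum. Their part in these results was not tested. Without SEMF-like cells that had a Sox6 UMI the 4 calls held, with log2 changes of 1.41 for Nrg1, 2.02 for Ereg, 1.78 for Areg and -2.98 for Btc. The Areg call was lost without proximal replicate 1 (adjusted p = 0.0697), distal replicate 2 (0.0818), the cecum (0.0975) or the large intestine (0.0972), and after subtraction of free RNA (0.0895), although its log2 change stayed at 1.63 to 1.82 in these 5. Both large bowel libraries carried the hashtag set of replicate 1 of the small intestine. With the replicate number as a block over the 6 libraries, an alternative added after the data had been seen, the 4 calls held. Against replicate 1 alone they were still higher in Nrg1, Ereg and Areg and lower in Btc, as the plot of SEMF-like sums shows.

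**Figure D4:**
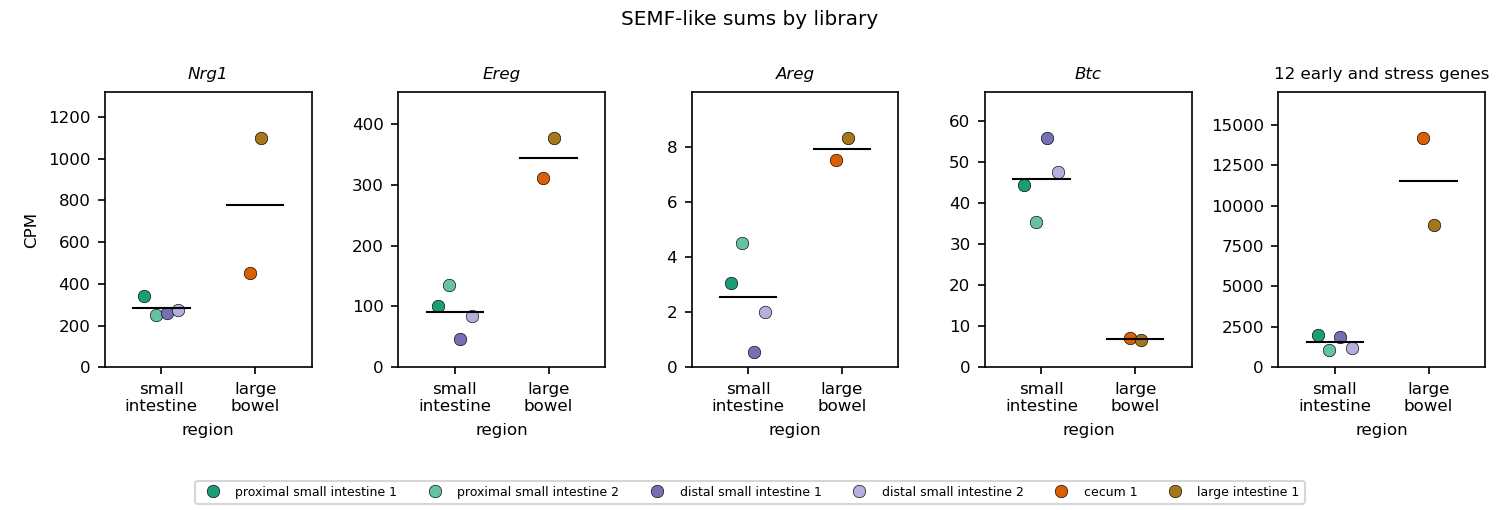
Nrg1, Ereg, Areg and Btc, and the summed 12 early and stress genes, in CPM of SEMF-like cells (y axes from 0) in the small intestine (4 libraries) and the large bowel (cecum and large intestine, 1 library each); lines are means. Nrg1, Ereg and Areg are higher in both large bowel libraries than in any small intestinal one, Btc is lower (6.54 and 7.12 against 35.4 to 55.9), and the early genes are higher.

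The class contrasts were also compared between regions, by a test of the difference itself. For SEMF-like against trophocyte-like cells 3 of 7 ligand genes tested differed between the large bowel and the small intestine, where 14.6% of all genes did. For VTT-like against other fibroblast-like cells 3 of 9 differed, over 3.81%, and for LEC-like against fibroblast-like cells 2 of 10, over 9.21%. Their values are among the additional observations.

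In LEC-like cells 2 of 7 ligand genes were higher in the large bowel and 0 lower, over 9.44% and 10.5% of all genes. Tgfa rose (log2 change 3.86 ± 0.58, adjusted p = 0.00259), with the values given above. Nrg1 rose as well (log2 change 2.83 ± 0.55, adjusted p = 0.00883), its level being 2.06 to 10.3 CPM in the small intestine, 13.6 in the cecum and 102 for the large intestine. The Nrg1 call rested on the large intestine: without it the log2 change was 0.65 (adjusted p = 0.642). There, free RNA held 541 CPM of Nrg1 and the LEC-like cells had 40.9 CPM of Sox6, against 0.823 to 11.999 in the other libraries, and with 10% of each sum taken off along the free RNA profile the log2 change was 2.79 and the adjusted p 0.0588.

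The distal and proximal small intestine, with 2 libraries each, had no ligand gene called by edgeR's test. In fibroblast-like cells 0 of 9 genes tested were called, and 0 had an unadjusted p under 0.05. The background was 0.00521% of all genes higher and 0% lower. For Nrg1 the log2 change, distal minus proximal, was -0.71 ± 0.39 and for Ereg -0.26 ± 0.15. In LEC-like cells 0 of 7 were called, with a background of 0% in each direction, and 1 gene, Nrg2, passed 0.05 before adjustment, on 2 to 62 UMIs a library. limma-voom and DESeq2 also called 0 ligand genes in both. With 2 libraries a group, a change smaller than the spread between them is not detectable.

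The receptors were measured in the same sums. Egfr, the receptor of the EGF-type ligands, was high in trophocyte-like cells (744, 578, 623, 561, 657 and 555 CPM in the proximal replicates, the distal replicates, the cecum and the large intestine). It was lower in SEMF-like cells (185, 198, 156, 221, 262 and 280.0), and the ranges did not overlap (log2 change -1.95 ± 0.14 in the small intestine, adjusted p = 0.000137). VTT-like cells held 293 to 434, LEC-like cells 10.4 to 27.0 and blood endothelial-like cells 4.75 to 26.5. Erbb2 lay between 11.7 and 14.5 in trophocyte-like cells and was 3.20 to 6.95 in LEC-like cells. The neuregulin receptors were close to absent from the fibroblasts that held the neuregulins: Erbb3 did not exceed 0.782 CPM in SEMF-like and 0.2803 in VTT-like sums, and Erbb4 0.355 and 1.43. Glia-like cells held 289, 381 and 329.7 Erbb3 and 26.8, 11.5 and 14.3 CPM of Erbb4, in the proximal replicates and distal replicate 1, and the 48 epithelial-like cells of the large intestine 96.2 of Erbb3 and 161 of Egfr.

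**Figure D5:**
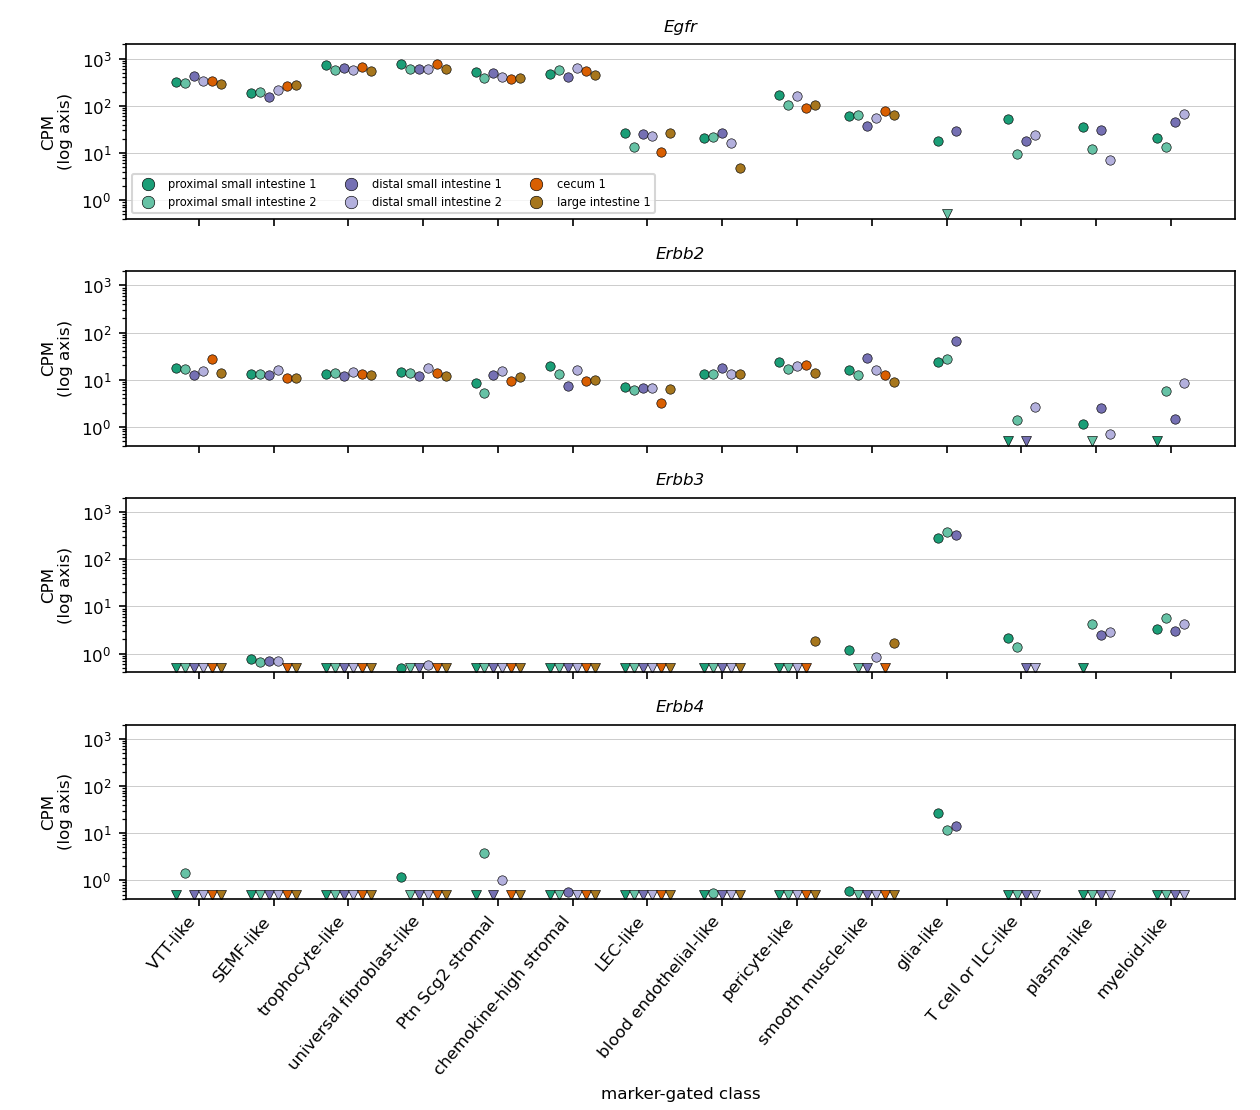
CPM of the receptors Egfr, Erbb2, Erbb3 and Erbb4 (panels, log axes) in each class, 1 point per library with at least 20 cells of the class; triangles at the bottom mark values under 0.5. Egfr is above 150 in all fibroblast classes and at 4.75 to 27.0 in both endothelial classes, and Erbb3 above 100 is seen in glia-like cells alone among the classes drawn.

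Of 23 other genes of the pathway (receptors, the ligand Epgn, processing proteases, inhibitors and response genes), 22 were tested between SEMF-like and trophocyte-like cells, of which 11 were higher and 5 lower, where 27.5% and 30.0% of all genes were. The largest rises were those of response genes of the ERK branch: Etv4 (log2 change 3.18 ± 0.32), a transcription factor, Dusp4 (2.55 ± 0.26), an ERK phosphatase, and Spry4 (1.66 ± 0.14), a feedback inhibitor. Etv4 and Dusp4 were low, at means of 2.58 and 2.27 CPM in SEMF-like and 0.627 and 0.453 in trophocyte-like sums over all 6 libraries. By the same means, Spry4 was at 30.8 and 16.9, Spry1 at 78.9 and 42.4, Dusp6 at 46.5 and 53.9 and Etv5 at 18.6 and 17.1. Errfi1 (-2.19 ± 0.07) and Lrig3 (-1.73 ± 0.08), which act on the receptors, were lower along with Egfr. The 12 early and stress genes differed between these classes too, at 1043 to 1978 CPM in SEMF-like and 7707 to 10050.3 in trophocyte-like sums of the small intestine, and their part in the ligand and pathway results was not tested. VTT-like cells had 4 of 22 higher and 4 lower, over 8.77% and 13.0%, against the pool of other fibroblast-like cells, mostly trophocyte-like. Spry4 (3.02 ± 0.19), Spry2 (0.81 ± 0.13) and Spry1 (0.77 ± 0.15) lay above this pool. Lrig3 (-1.76 ± 0.25), Errfi1 (-1.46 ± 0.13) and Egfr (-0.82 ± 0.11) lay below it. By class the order varied. In VTT-like, SEMF-like and Ptn Scg2 stromal sums, mean Spry4 over all 6 libraries was 106, 30.8 and 119 CPM. Spry2 was at 120, 83.6 and 115, and Spry1 at 70.1, 78.9 and 158. Lrig3 was at 10.8, 13.4 and 34.8, and Errfi1 at 70.2, 61.3 and 94.9. Mean Egfr of the small intestine was 352, 190 and 458. LEC-like cells had 4 of 23 higher and 14 lower, over 27.3% and 37.8%. Among the former was Adam10, a protease that releases ligands, with a mean of 422 ± 52.3 CPM (SD, n = 6) against 87.5 ± 23.6 in trophocyte-like cells (log2 change against all fibroblast-like cells 2.05 ± 0.07).

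In blood endothelial-like cells 6 of 21 were higher and 8 lower, over 22.4% and 37.1% of all genes, and in pericyte-like cells 5 and 5 of 22, over 14.3% and 18.0%. Smooth muscle-like cells had 1 of 21 higher and 11 lower, over 15.2% and 23.1%. Among immune cells, 5 of 21 were higher and 12 lower in myeloid-like cells, over 18.4% and 27.4%, and 1 and 14 of 21 in T cell or ILC-like cells, over 20.4% and 31.0%. Glia-like cells had 10 of 22 higher and 3 lower, over 9.80% and 13.6%. In glia-like cells Erbb3 led (log2 change 9.91 ± 0.25), followed by Erbb4 (5.88 ± 0.96) and Dusp4 (3.56 ± 1.05). Between regions, 4 of 23 were higher and 4 lower in large bowel fibroblast-like cells, over 16.0% and 14.3%, with Spry4 (1.89 ± 0.25), Spry1 (1.32 ± 0.23) and Dusp6 (1.01 ± 0.24) leading. As for the ligands, the mixture of classes moved with region, and its part was not tested. Mean Spry4 over all 6 libraries was 119 CPM in Ptn Scg2 stromal, 106 in VTT-like, 30.8 in SEMF-like and 16.9 in trophocyte-like sums. In SEMF-like cells 1 of 22 was higher, Egfr (0.70 ± 0.15), and 5 lower, led by Lrig1 (-1.91 ± 0.40), an inhibitor of the receptors, over 20.6% and 17.2%. LEC-like cells had 1 of 20 higher and 3 lower, over 9.44% and 10.5%. Between the distal and proximal small intestine 0 of 23 and 0 of 20 were called.

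The genes whose levels followed the ligands most closely were named by Pearson's correlation over 84 sums of class and library (17 classes, 12043 genes, log2 of the level plus 1). The sums of 1 library share its depth and free RNA and sums of 1 class its cells, so r is a description. For Nrg1 they were Col6a4 (r = 0.84), Smad6 (0.80) and Ptprr (0.80). For Ereg they were Bmp4 (0.89), Sdk1 (0.88) and Adamdec1 (0.88). Btc went with Mlph (0.82), Tln2 (0.78) and Clstn2 (0.76), and Nrg2 less closely with Slc1a4 (0.64), Edar (0.64) and Adra2c (0.64). Hbegf went with Pcdh1 (0.79), Fabp5 (0.77) and Specc1 (0.72), and Areg with Ppp1r3b (0.71), Tcf7 (0.67) and Gprin3 (0.67). Nrg3 went with Calcb (0.72), Calb2 (0.70) and Ctxnd1 (0.68). Between ligands, Nrg1 and Ereg had r = 0.66 over the 84 sums and Ereg and Areg 0.41, or 0.69 and 0.79 over the 42 fibroblast sums.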

How the data were processed

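Raw UMI counts of every barcode over 33697 genes were deposited by the authors. Alignment was by Cell Ranger (8.1.0 in the submitters' processing notes), the genome being mm39 extended by tdTomato. No removal of cells, doublets or ambient RNA is part of these counts.

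The study's limits were applied: a kept barcode had between 1000 and 7500 genes detected, between 2500 and 40000 UMIs, and less than 10% of them mitochondrial. A hashtag was called 2.5 robust SDs above its background, and cells with several hashtags were removed as doublets. Cells with no hashtag called were kept: 4977 and 3648 (proximal), 2784 and 3121 (distal), 848 (cecum) and 338 (large intestine). Doublets of 1 hashtag remain, and cells with markers of fibroblasts and another class were set aside as mixed (2626). Classes were gated per cell by the number of markers detected and their share of UMIs: 3 SEMF, VTT or trophocyte markers, 0.12% of UMIs on the VTT list, and 5 LEC markers, for example. Cells near a limit are many: 255 to 1008 fibroblasts a library lay between SEMF-like and trophocyte-like. UMIs were summed per library and class and tested by edgeR's quasi-likelihood test (TMM, filterByExpr, Benjamini-Hochberg, 0.05), fitted over all genes, with library as a block between classes and none between regions. The SE is the log2 change over the square root of F. The design was run on simulated counts for SEMF-like against trophocyte-like cells and for SEMF-like cells between regions. It was not run for sparse classes such as VTT-like or glia-like cells. Named were all 10 ligands, up to 3 other pathway genes per direction with the largest called change, and up to 3 most correlated genes per ligand. The members and lists were chosen with earlier results of these data known, and gate limits after marker counts were seen. Alternatives were limma-voom, DESeq2, no filter, leaving out single libraries, a correction for free RNA (10% of a sum), a stricter gate, cells with several hashtags kept, the blocks, and, added after the data were seen, SEMF-like cells without Sox6 or without Itga8 and the replicate block between regions. Promoters came from a RefSeq table, which matched 6 of 10 ligands. Python 3.11.15 (numpy 2.4.6, pandas 2.3.3, scipy 1.17.1, matplotlib 3.10.9) and R 4.3.3 with DESeq2 1.42.0, limma 3.58.1 and edgeR 4.0.16 were used.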

Additional observations from a re-analysis of the deposited data

Results flagged for a closer look

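The contrast between classes differed between the large bowel and the small intestine for 8 values, by a test of the difference itself (edgeR, large bowel minus small intestine, log2). For SEMF-like against trophocyte-like cells, Ereg differed by 3.48 ± 0.33 (SE, adjusted p = 0.00276), Areg by 3.02 ± 0.80 (SE, adjusted p = 0.0499) and Egf by 1.30 ± 0.34 (SE, adjusted p = 0.0491), where 14.6% of all genes were called in either direction. In the large bowel Ereg was 312 and 378 CPM in SEMF-like against 32.1 and 55.5 in trophocyte-like cells. The trophocyte-like cells of the large bowel are so by the gate only. In the small intestine the classes overlapped (46.4 to 135 against 102 to 134), and the lower call in SEMF-like cells there was lost under 4 alternatives, with adjusted p from 0.0547 to 0.114. Egf was low in these sums, at 1.63 to 3.27 CPM in SEMF-like and 0.492 to 2.88 in trophocyte-like cells. Free RNA held 1.21 to 3.34 CPM of Egf, which overlaps both ranges. For Nrg1, whose difference was -0.10 ± 0.33 (SE, adjusted p = 0.872), no change of the contrast was called.

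For VTT-like against other fibroblast-like cells, Nrg1 differed by -2.34 ± 0.46 (SE, adjusted p = 0.00123), Nrg2 by -1.76 ± 0.32 (SE, adjusted p = 0.000527) and Btc by 1.41 ± 0.38 (SE, adjusted p = 0.0260), with 3.81% of all genes called. The VTT-like cells of the large bowel are so by the gate only, with 16.9 to 32.5 CPM of Lgr5. Mean Nrg1 of VTT-like cells was close in both regions (given above), while the other fibroblast-like cells differed in make-up. Trophocyte-like cells, which held little Nrg1, were 5512 of 9610 to 13403 of 16669 fibroblast-like cells in a small intestinal library. They were 2538 of 11994 in the cecum and 1229 of 9464 in the large intestine. The part of this in the differences was not tested. For LEC-like against fibroblast-like cells, Ereg differed by -1.01 ± 0.21 (SE, adjusted p = 0.0225) and Tgfa by 5.42 ± 0.83 (SE, adjusted p = 0.00625), with 9.21% called. Ereg in LEC-like sums was 4.32 to 6.30 CPM over the 6 libraries, with no change called between regions, while it was higher in fibroblast-like sums of the large bowel. Tgfa rested on 20 and 15 UMIs in the LEC-like cells of the cecum and large intestine.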

How the results depend on the processing

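The counts of ligand genes called stayed within 1.5 times the reported count in all 14 comparisons and alternatives run, except for 3 comparisons. In smooth muscle-like cells 1 gene in place of 3 was called without distal replicate 2, while the counts without 1 library ranged from 1 to 3. In glia-like cells 2 in place of 4 were called after subtraction of free RNA (Ereg and Hbegf) and 3 to 4 without 1 library (without proximal replicate 2, Ereg, Hbegf and Nrg1, with Nrg3 and Tgfa not tested). In LEC-like cells between regions, 4 in place of 2 were called with several-hashtag cells kept (Ereg and Btc added), 1 after subtraction of free RNA and 1 to 2 without 1 library. The cause was not tested. Of 51 called values, 39 were tested and past the threshold in every alternative and 11 missed it in at least 1. Tgfa and Nrg3 in glia-like cells could not be tested in some (free RNA subtracted, without proximal replicate 2). None of 615 values changed direction. Of 32 levels, 4 moved by more than 1 SD under the stricter gate: Ereg in trophocyte-like (97.5), Btc in chemokine-high stromal (21.8), Nrg1 in pericyte-like (18.3) and Areg in T cell or ILC-like sums (35.6). With the replicate number as a block, 0 ligand genes were called between distal and proximal sums of either class, as without it. Same-numbered libraries deviated together (r = 0.33 in fibroblast-like and 0.13 in LEC-like sums), and they share a hashtag set, but no label says that the number marks an animal or a batch. For the large bowel against the small intestine, a replicate block added after the data were seen called 4 ligand genes in place of 5 in fibroblast-like sums (Nrg2 lost, adjusted p = 0.0870), 4 in SEMF-like and 2 in LEC-like sums, as without it. Precision is limited by 2 large bowel libraries of different organs and by low counts of Tgfa, Nrg4 and Egf.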
